A study of Homo sapiens with 4 samples.

Results

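The kinesin superfamily genes of cells labelled as SKOV3 OCSCs (ALDH+ ovarian cancer stem cells) were followed in 2 Vehicle and 2 LY500307 samples. The genes were taken by symbol alone, as those that begin with KIF and a digit, together with KIFC1, KIFC2, KIFC3 and KIFAP3. This gave 43 of the 23228 gene symbols counted. By their known roles, 15 were grouped as mitotic kinesins and 18 as transport kinesins, and the other 10 act in cilia or have other or poorly defined roles. KIFAP3 is not a motor itself but the cargo adaptor of kinesin-2, and it was placed with the transport genes.

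The samples were ALDH+ cells labelled SKOV3, an established human ovarian cancer line, sorted by flow cytometry for aldehyde dehydrogenase activity and grown as spheroids with EGF, bFGF, hydrocortisone and insulin. LY500307 is an agonist of estrogen receptor beta (ERβ) and was given at 5 µM for 24 h, whereas the control cells received vehicle for the same 24 h. Poly-A or total RNA was sequenced as 50 nt single reads, the sources differing on the library kit, and reads counted on genes ranged from 28841701 to 34943882 per sample. All cells came from 1 line, and whether replicates were separate cultures is not given in the sources used here, so p-values measure only the spread between these samples. The labelled identity was checked by marker genes. Of the markers listed for SKOV3 cells, EPCAM (6213 to 8327 reads per sample), ERBB2 (1452 to 2060) and KRT18 (668 to 1030) were counted. The listed markers CD44 (3 to 16 reads) and KRT8 (9 to 33) were close to absent, and PAX8 had 0 reads in each sample. Per kb of transcript, ERBB2 had 10.95 CPM in Vehicle, compared with 138 for EPCAM. Of the ALDH and stem cell markers, ALDH1A1 had 134 to 185 reads, ALDH1A3 8 to 16 and PROM1 21 to 43. CDKN2A (834 to 1107 reads), which SKOV3 is known to lack, was chosen after its values were seen and was counted. The values of PAX8, CD44, KRT8 and CDKN2A went against the label, whereas those of EPCAM and KRT18 did not. The identity of the line is therefore in doubt, and the cells are called here by their label only. Of 5 markers of other cells, leukocyte PTPRC, endothelial PECAM1 and neuronal RBFOX3 had at most 4 reads and SNAP25 at most 14, whereas COL1A1, the collagen chain of fibroblasts, had 5404 to 7703. COL1A1 was higher with LY500307 at an unadjusted p below 0.05 (log2 fold change 0.28 ± 0.10, SE, edgeR), as was KRT18 (0.30 ± 0.13), and their part in the kinesin results was not tested.

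Kinesins are motor proteins that use ATP to move along microtubules or to take microtubules apart. Mitotic kinesins separate the spindle poles, align chromosomes and build the central spindle for cytokinesis, and their mRNAs are known to rise in G2 and M phase of the cell cycle. Transport kinesins carry vesicles, mitochondria and proteins through the cytoplasm and are expressed in resting as well as dividing cells. The promoters of many G2/M genes hold a cell cycle homology region (CHR, usually TTTGAA) and CCAAT boxes, at which the DREAM and MYB-MuvB complexes and the factor NF-Y are known to act.

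Promoter sequences came from RefSeq (GRCh38.p14), with 250 bases before and 50 bases after each start site, and 35 of the 43 kinesin genes had an entry. The letters TTTGAA were found on either strand in 10 of 15 mitotic kinesin promoters, in 1 of 13 transport kinesin promoters (KIF5B) and in 0 of 7 of the others. Over all 35116 promoters of the same length, 15.2% held these letters, as did at least 1 promoter of 18.2% of 27305 genes. CCAAT, again on either strand, was found in 11 of 15 mitotic, 4 of 13 transport and 3 of 7 other kinesins, compared with 34.6% of all promoters and 39.7% of genes. The related letters TTCGAA were found in KIF22 and KIF24 and in 1.45% of all promoters. GGTCANNNTGACC, the full estrogen response element, was found in 0 of the kinesins and in 20 of all promoters, and its half-site TGACC in 5 of 15 mitotic, 4 of 13 transport and 2 of 7 other kinesins, compared with 37.4% of all promoters. Of the motifs searched, TGACC lies within the full element. The kinesin counts are per gene, whereas for TTCGAA, the full element and TGACC the comparison given is per promoter only. A match is a description of the letters in the window and not a bound site.

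The 100 bases before the start site are shown for 5 mitotic kinesins with TTTGAA, then for KIF2C, a mitotic kinesin without it, and for the transport kinesin KIF3B. They were selected to set the letters of genes that were lower with LY500307 beside those of genes that were not. KIF18A, KIF2C and KIF3B were not lower at an unadjusted p below 0.05 (edgeR). KIF20A, which was lower but has no TTTGAA, is not shown. Capitals mark TTTGAA or CCAAT, or the reverse complement of either (TTCAAA or ATTGG).
KIF23 (chr15:69414249-69414348, plus strand): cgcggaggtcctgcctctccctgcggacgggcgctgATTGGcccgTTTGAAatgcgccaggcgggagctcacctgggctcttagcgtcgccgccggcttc
KIF4A (chrX:70290004-70290103, plus strand): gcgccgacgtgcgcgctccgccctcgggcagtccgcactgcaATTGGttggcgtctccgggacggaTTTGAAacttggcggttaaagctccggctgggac
KIF15 (chr3:44761694-44761793, plus strand): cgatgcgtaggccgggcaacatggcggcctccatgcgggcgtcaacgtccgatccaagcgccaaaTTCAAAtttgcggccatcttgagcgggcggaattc
KIF11 (chr10:92593030-92593129, plus strand): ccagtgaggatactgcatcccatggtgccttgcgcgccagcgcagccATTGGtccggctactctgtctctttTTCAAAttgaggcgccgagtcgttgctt
KIF18A (chr11:28108157-28108256, minus strand): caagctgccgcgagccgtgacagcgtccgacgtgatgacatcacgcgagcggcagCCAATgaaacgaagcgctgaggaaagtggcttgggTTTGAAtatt
KIF2C (chr1:44739737-44739836, plus strand): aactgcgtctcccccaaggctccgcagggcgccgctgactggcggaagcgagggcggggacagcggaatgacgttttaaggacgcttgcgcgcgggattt
KIF3B (chr20:32277551-32277650, plus strand): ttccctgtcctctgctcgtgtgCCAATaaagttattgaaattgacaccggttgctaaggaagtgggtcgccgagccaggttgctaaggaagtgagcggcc
In KIF23, KIF4A and KIF11 an ATTGG lies upstream of the TTTGAA or TTCAAA, and in KIF18A a CCAAT does. KIF2C has neither in this stretch, and KIF3B has a CCAAT alone.

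To compare the 2 groups, counts were scaled to CPM (the reads of a gene per fixed number of library reads, with TMM library sizes) and fitted with the quasi-likelihood model of edgeR. Of the 43 kinesins, 40 were among the 14473 genes with enough reads to be tested. KIF2B, a kinesin-13 of the spindle, had 0 reads in both Vehicle samples and 2 and 1 reads with LY500307. KIF12 had 2 to 4 reads per sample, and KIF6 had 17 and 0 reads in Vehicle and 4 and 0 with LY500307. A count of 3 reads corresponded to between 0.0864 and 0.106 CPM in these samples, so the levels of KIF2B and KIF12 were at or near that limit and no fold change is given for the 3 genes.

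Most mitotic kinesin mRNAs were modestly lower after LY500307 at an unadjusted p, and none at an adjusted p. Of the 14 mitotic kinesins tested, 9 were lower at an unadjusted p below 0.05 and 0 were higher, compared with 5.5% of all 14473 genes lower and 6.09% higher. These 9 were KIF14, KIF20B, KIF4A, KIF23, KIF20A, KIFC1, KIF15, KIF4B and KIF11. Their log2 fold changes lay between -0.49 and -0.29, which is 71.3% to 81.6% of the Vehicle level. Among 18 transport kinesins, 1 was lower (KIFC2) and 0 were higher. Of the 8 tested genes with ciliary or other roles, 0 passed in either direction. Together, 10 of 40 tested kinesins passed, compared with 11.6% of all genes in either direction, and 30 of 40 had a log2 fold change below 0, compared with 50% of all genes. The median log2 fold change was -0.31 for mitotic kinesins, -0.08 for transport kinesins and 0.07 for the others, whereas the median of all genes tested was -0.00. The 10 kinesins that passed had unadjusted p-values from 0.00155 (KIF14) to 0.0241, and after Benjamini-Hochberg adjustment over all genes in edgeR each of them had an adjusted p = 0.422, which was also the smallest of all genes. Thus 0 kinesins and 0% of all genes reached an adjusted p below 0.05. DESeq2 gave 0 kinesins at an adjusted p below 0.05, compared with 0.138% of all genes, and 9 mitotic and 1 transport kinesins lower at an unadjusted p below 0.05 (4.46% of all genes). Under the criteria of the study, an unadjusted p below 0.05 together with an absolute log2 fold change above 0.5, 0 kinesins were called, compared with 4.62% of all genes. An exact permutation test of 1 gene with 2 samples against 2 cannot give a two-sided p below 0.333.

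**Figure D1:**
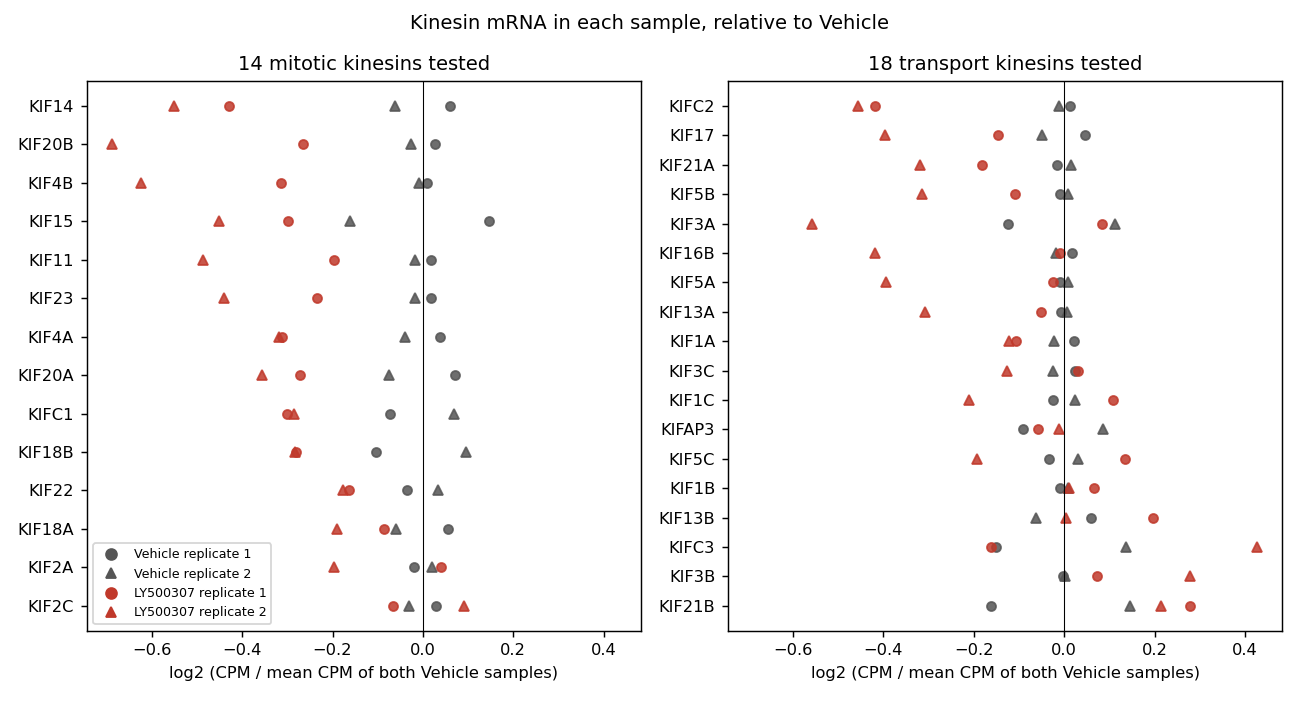
Level of each mitotic and transport kinesin in each sample, as log2 of its CPM over the mean CPM of both Vehicle samples (x axis), 1 gene per row, with colour for the group and marker shape for the replicate. In 12 of 14 mitotic and 7 of 18 transport kinesins both LY500307 samples lie to the left of both Vehicle samples.

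The groups did not overlap, with both LY500307 samples below both Vehicle samples, in 12 of the 14 mitotic kinesins, compared with 24.4% of all genes. The exceptions were the microtubule depolymerases KIF2A and KIF2C. Of transport kinesins, 7 of 18 did not overlap in this direction and 3 did not overlap in the other (24.2% of all genes). The LY500307 samples were not alike. Set against the mean of both Vehicle samples, the median mitotic kinesin had a log2 ratio of -0.27 in LY500307 replicate 1 and -0.34 in replicate 2, and the median transport kinesin -0.02 in replicate 1 and -0.20 in replicate 2. Over all genes, replicate counts differed with a chi-square of 42.5 per degree of freedom in the LY500307 pair and of 5.16 in the Vehicle pair. In bulk RNA, fewer cells in G2 or M phase and less of these mRNAs per cell cannot be told apart.

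Summed over the class, mitotic kinesins took 1426 and 1395 CPM in the Vehicle samples and 1214 and 1098 CPM in the LY500307 samples. Transport kinesins took 1513 and 1543 CPM in Vehicle and 1500 and 1327 CPM with LY500307. The ratio of mitotic to transport kinesin CPM was 0.942 and 0.904 in Vehicle and 0.809 and 0.828 with LY500307, so that the groups did not overlap. Taken singly, 24.4% of all genes did not overlap in this direction. KIF5B alone made up 529 and 535 CPM of the transport sums in Vehicle, so the ratio weighs few genes most.

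Kinesin levels in the cells spanned a wide range. Per kb of transcript, KIF5B, the ubiquitous heavy chain of kinesin-1, had the highest Vehicle level with 90.7 ± 0.760 CPM per kb (SD, n = 2), and KIF22, which binds chromosome arms, followed with 84.1 ± 2.87. KIFC1 had 50.7 ± 3.49, KIF11 44.1 ± 0.768 and KIF23 29.4 ± 0.505 CPM per kb. KIF20A (26.3 ± 1.85) and KIF1C, a carrier of vesicles (26.2 ± 0.648), did not differ beyond their spread. The lowest of the tested genes in Vehicle were KIF25, KIF19, KIF9 and KIF21B, with 0.178, 0.331, 0.642 and 0.672 CPM per kb.

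The kinesins of the central spindle and midbody (KIF14, KIF20A, KIF20B, KIF23, KIF4A and KIF4B) were all lower at an unadjusted p below 0.05. KIF14 (chr1:200520625-200589879 in GRCh37, minus strand), a kinesin-3 motor that recruits the citron kinase to the midbody, had 139 and 128 CPM in Vehicle and 98.9 and 90.8 CPM with LY500307. Each LY500307 sample lay below each Vehicle sample, and the log2 fold change was -0.49 ± 0.10 (SE). KIF20B (chr10:91461347-91534696, plus strand), a kinesin-6 motor needed for the completion of cytokinesis, had 153 and 148 CPM in Vehicle and 125 and 93.4 CPM with LY500307. The groups were apart, although the LY500307 samples differed more from each other than the Vehicle samples did, and the log2 fold change was -0.46 ± 0.14. KIF23 (MKLP1), the motor subunit of centralspindlin, had 109 and 106 CPM in Vehicle and 91.5 and 79.3 CPM with LY500307. It showed the same order of groups with a log2 fold change of -0.33 ± 0.11. KIF20A (MKLP2), which carries the chromosomal passenger complex to the central spindle, had 85.3 and 77.2 CPM in Vehicle and 67.3 and 63.5 CPM with LY500307. Its groups did not overlap (log2 fold change -0.31 ± 0.11). All 3 kinesin-6 genes were thus lower at an unadjusted p below 0.05.

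KIF4A and KIF4B, the chromokinesins that act with PRC1 on the central spindle, were both lower. KIF4A (chrX:69509954-69640736) had 77.7 and 73.6 CPM in Vehicle and 60.9 and 60.6 CPM with LY500307. The groups were clearly apart, and the log2 fold change was -0.32 ± 0.10. KIF4B (chr5:154393315-154397701), an intronless copy of KIF4A, had 16.3 and 16.1 CPM in Vehicle and 13.1 and 10.5 CPM with LY500307, again without overlap (log2 fold change -0.46 ± 0.17). Of the 50-base windows of the KIF4A transcript, 14.9% were found in another gene, and 13.97% of those of KIF4B. Reads could thus be assigned to the wrong copy or be left out as not unique, and the values of the pair are uncertain. The counts of genes given here take each of the pair as a gene of its own, although their values may not be independent.

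Among the motors of spindle assembly, the same direction was seen in KIF11, KIF15 and KIFC1. KIF11 (Eg5; chr10:94333862-94415152), the kinesin-5 motor that pushes spindle poles apart, had 224 and 218 CPM in Vehicle and 193 and 158 CPM with LY500307. The groups did not overlap (log2 fold change -0.34 ± 0.12). KIF15, a kinesin-12 motor that can stand in for KIF11 at the spindle, had 80.1 and 64.7 CPM in Vehicle and 58.8 and 53.0 CPM with LY500307. Here the Vehicle samples were themselves far apart, with the lower of them near the higher LY500307 sample (log2 fold change -0.37 ± 0.13). KIFC1 (HSET), a minus-end motor of kinesin-14 that focuses spindle poles, had 115 and 127 CPM in Vehicle and 98.5 and 99.4 CPM with LY500307. The LY500307 samples were nearly equal and below both Vehicle samples (log2 fold change -0.29 ± 0.10).

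The other 5 tested mitotic kinesins did not pass the test. KIF18B, a kinesin-8 motor that shortens astral microtubules, had 25.6 and 29.4 CPM in Vehicle and 22.6 CPM in each LY500307 sample, a log2 fold change of -0.28 ± 0.13 (adjusted p = 0.437). KIF22 had 171 and 179 CPM in Vehicle and 156 and 155 CPM with LY500307 (log2 fold change -0.17 ± 0.10, adjusted p = 0.475). KIF18A, which dampens chromosome movements at the metaphase plate, had 34.9 and 32.2 CPM in Vehicle and 31.6 and 29.4 CPM with LY500307 (log2 fold change -0.14 ± 0.12, adjusted p = 0.636). In these 3 genes the groups did not overlap. KIF2A and KIF2C (MCAK), kinesin-13 proteins that depolymerise microtubule ends, had overlapping groups and log2 fold changes of -0.07 ± 0.11 and 0.01 ± 0.11. KIF2A shares 1906 bases, 23.95% of its transcript, with DIMT1 on the opposite strand, and whether counting used strand is not given in the sources used here, so reads in the shared bases cannot be told apart. Without KIF2A the median of the mitotic class was -0.32, with 9 of 13 lower.

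**Figure D2:**
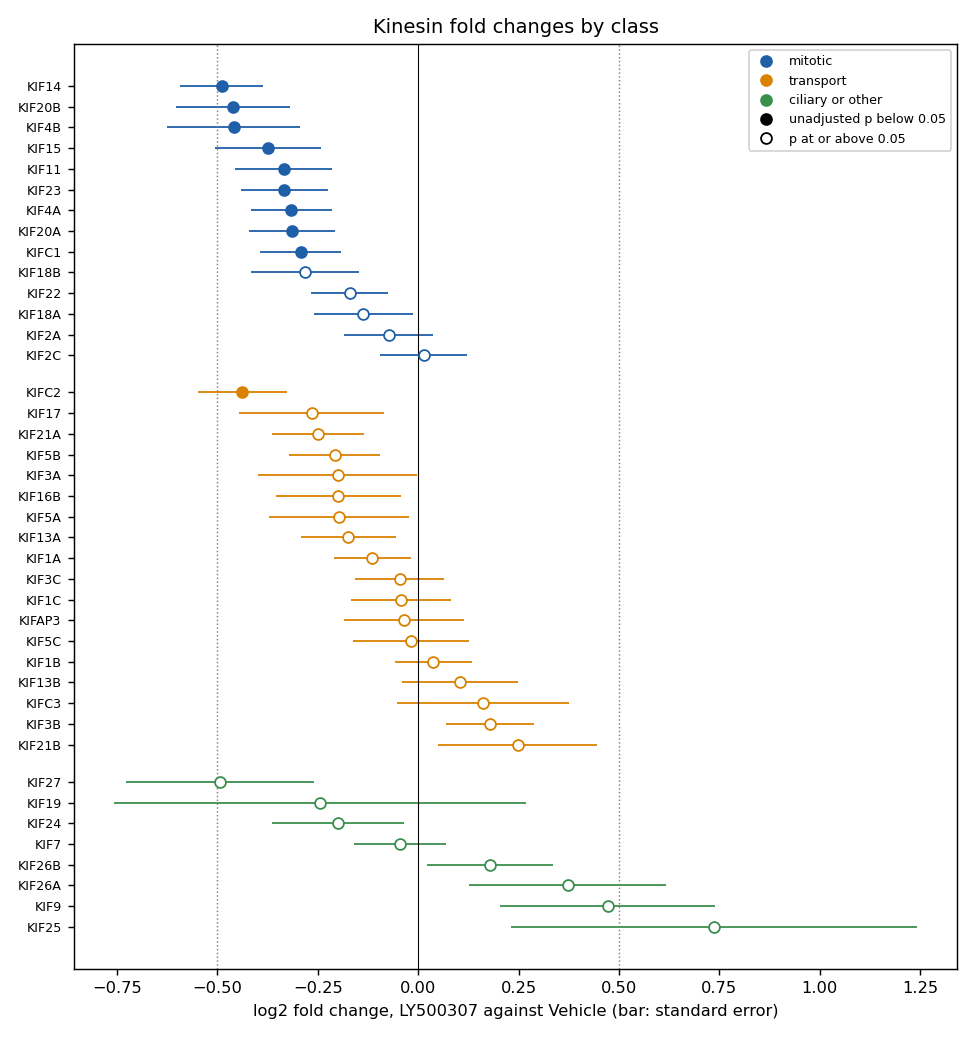
Log2 fold change of each of the 40 tested kinesins, LY500307 against Vehicle (x axis), with the standard error as a bar, colour for the class, filled symbols for an unadjusted p below 0.05 and dotted lines at -0.5 and 0.5. The 10 filled symbols are 9 mitotic kinesins and KIFC2, between -0.49 and -0.29.

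Of the transport kinesins, KIFC2 alone was lower at an unadjusted p below 0.05. KIFC2, a minus-end motor of kinesin-14 known from neurons, had 49.6 and 48.8 CPM in Vehicle and 36.8 and 35.9 CPM with LY500307. Replicates were within 1 CPM of each other in both groups and the log2 fold change was -0.44 ± 0.11. It shares 791 bases, 24.2% of its transcript, with FOXH1 on the opposite strand, which had 12 to 58 reads per sample. The next genes by p did not pass the test. KIF21A, a kinesin-4 protein that restrains microtubule growth, had 46.9 and 47.9 CPM in Vehicle and 41.8 and 38.0 CPM with LY500307 (log2 fold change -0.25 ± 0.11, adjusted p = 0.431). KIF5B had 529 and 535 CPM in Vehicle and 494 and 428 CPM with LY500307 (-0.21 ± 0.11, adjusted p = 0.469). KIF3B, a motor subunit of kinesin-2, had 79.1 and 79.3 CPM in Vehicle and 83.4 and 96.1 CPM with LY500307, a log2 fold change of 0.18 ± 0.11 in the other direction (adjusted p = 0.503).

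KIF13A, a kinesin-3 motor of endosomes, had 75.5 and 76.2 CPM in Vehicle and 73.2 and 61.3 CPM with LY500307, and KIF17, a kinesin-2 motor, had 9.84 and 9.22 CPM in Vehicle and 8.62 and 7.24 CPM with LY500307. Their log2 fold changes were -0.17 ± 0.12 (adjusted p = 0.538) and -0.27 ± 0.18 (adjusted p = 0.540), both with groups that did not overlap. In KIF5B and KIF13A, LY500307 replicate 2 was well below replicate 1, which lay close to the Vehicle samples. The other 12 transport genes, among them the kinesin-1 chains KIF5A and KIF5C, the kinesin-3 motors KIF1A, KIF1B and KIF1C and the kinesin-2 genes KIF3A, KIF3C and KIFAP3, had log2 fold changes between -0.20 and 0.25 and did not pass the test.

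The 8 tested kinesins with ciliary or other roles showed both directions. KIF27, a relative of the Hedgehog pathway kinesin KIF7, had 12.01 and 14.04 CPM in Vehicle and 11.3 and 7.15 CPM with LY500307 (log2 fold change -0.49 ± 0.23, adjusted p = 0.437), and 24.5% of its 50-base windows were found in another gene. KIF7 itself had 41.4 and 42.6 CPM in Vehicle and 42.4 and 39.1 CPM with LY500307 (-0.04 ± 0.11). KIF9, a kinesin of the sperm tail and motile cilia that shares 569 bases with its antisense gene KIF9-AS1, had 2.04 and 2.25 CPM in Vehicle and 2.85 and 3.09 CPM with LY500307 (0.47 ± 0.27, adjusted p = 0.477). KIF24, KIF19, KIF26A, KIF26B and KIF25 had log2 fold changes of -0.20, -0.24, 0.37, 0.18 and 0.74, and KIF25 and KIF19 were below 2 CPM in each sample.

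By family, 3 of 3 kinesin-6 genes, the single kinesin-5 gene (KIF11) and the single tested kinesin-12 gene (KIF15) were lower at an unadjusted p below 0.05. Of all genes tested, 5.5% were lower by this rule. In kinesin-14 these were 2 of 4 (KIFC1 and KIFC2), in kinesin-4 2 of 6 (KIF4A and KIF4B) and in kinesin-3 1 of 7 (KIF14). In the families of kinesin-1 (3 genes), kinesin-2 (4), kinesin-8 (3) and kinesin-13 (3 tested) the number was 0. Within kinesin-3 and kinesin-4 the genes that passed were the mitotic members, whereas the transport members had log2 fold changes from -0.25 to 0.25. The kinesin-4 genes KIF27 and KIF7, of neither class, had -0.49 and -0.04 and did not pass.

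The letters in the promoter were set beside the fold changes. Of the 10 mitotic kinesins with TTTGAA, 8 were lower at an unadjusted p below 0.05, compared with 5.5% of all genes. The 10 had a median log2 fold change of -0.33 and a range of -0.49 to -0.14, and 9 of them also held CCAAT. The 4 tested mitotic kinesins without TTTGAA (KIF20A, KIF22, KIF2A and KIF2C) had a median of -0.12, and 1 of them, KIF20A, was lower. KIF5B, the transport kinesin with TTTGAA, had a log2 fold change of -0.21. These groups are small and were not tested against each other. Fold changes of all genes with TTTGAA are not given here, so a link of the letters to the decrease was not tested.

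Genes that work with the kinesins or control them were read from the same fit. Of 28 partners of mitotic kinesins, all tested, 12 were lower at an unadjusted p below 0.05 (5.5% of all genes) and 0 were higher (6.09%), with a median log2 fold change of -0.20. CENPE, the kinesin-7 motor of the kinetochore, which the symbol rule does not take, had 192 and 187 CPM in Vehicle and 148 and 106 CPM with LY500307 and a log2 fold change of -0.58 ± 0.15, so it met the criteria of the study. The other 5 with the smallest p were DLGAP5 (-0.36), a spindle protein, the kinetochore protein CENPF (-0.48), NUSAP1 (-0.44), which bundles spindle microtubules, PRC1 (-0.37), the partner of KIF4A and KIF14, and ANLN (-0.35), a scaffold of the cleavage furrow. BUB1B (-0.37), HMMR (-0.39), TPX2 (-0.35), CIT (-0.25), TTK (-0.28) and INCENP (-0.32) also passed. The kinases CDK1 and AURKB and the cyclin CCNB1 were among those that did not. CDK1 had 321 and 290 CPM in Vehicle and 280 and 326 CPM with LY500307 (log2 fold change -0.01 ± 0.12), and CCNB1 had 186 and 181 CPM in Vehicle and 176 and 233 CPM with LY500307 (0.16 ± 0.14, adjusted p = 0.629). AURKB, the kinase that KIF20A carries, had 45.6 and 40.9 CPM in Vehicle and 41.3 and 59.5 CPM with LY500307 (0.22 ± 0.17, adjusted p = 0.591).

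Among 21 tested adaptors and cargo partners of transport kinesins, 0 were lower and 0 higher at an unadjusted p below 0.05, and the median log2 fold change was 0.01. KLC3 was 1 of 22 on this list and did not pass the expression filter. The 6 with the smallest p were the light chain KLC2 (-0.24, adjusted p = 0.443), the mitochondrial adaptor TRAK2 (-0.25, adjusted p = 0.453), KIDINS220 (-0.22), MAPK8IP3 (-0.12), RHOT2 (0.17) and MAPK8IP2 (0.24).

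Of 15 regulators of G2/M transcription, 4 were lower (5.5% of all genes) and 0 higher (6.09%) at an unadjusted p below 0.05. MYBL1, a MYB family factor, had 22.0 and 23.8 CPM in Vehicle and 15.0 and 11.8 CPM with LY500307 (log2 fold change -0.77 ± 0.16), and it met the criteria of the study. LIN54, the subunit of MuvB that binds the CHR, had a log2 fold change of -0.43 ± 0.14, FOXM1 of -0.29 ± 0.10 and MYBL2 (B-MYB) of -0.35 ± 0.12. RBL1 (-0.25, adjusted p = 0.477) and the NF-Y subunit NFYB (-0.31, adjusted p = 0.483) came next and did not pass. Of 7 proliferation markers, TOP2A (-0.29 ± 0.11) and MKI67 (-0.42 ± 0.18) were lower, and PCNA, MCM2, MCM6, CCNA2 and CCNE2 had log2 fold changes from -0.10 to 0.05 and did not pass.

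Transcript length and GC content moved with the fold changes of all genes and differed between the classes. The median GC content was 43.6% in mitotic kinesins, 49.9% in transport kinesins and 48.6% in all genes tested, and the median transcript length 4237.5, 6061.5 and 3317.5 bases. Genes outside the family with less than 40% GC had a median log2 fold change of -0.12, and the 5 mitotic kinesins in that band -0.34. In the band of 45 to 50% GC the other genes had a median of -0.01 and the 3 mitotic kinesins -0.32. Of genes with at least 6000 bases the other genes had a median of -0.07, the 3 mitotic kinesins -0.46 and the 10 transport kinesins -0.03. In most other bands the transport kinesins also had a median below the other genes. At 60% GC or more the 4 transport kinesins had -0.19 against 0.14, and from 3000 to 4000 bases the 3 had -0.27 against -0.02. The bands of 40 to 45% GC (-0.03 against -0.07) and 55 to 60% GC (0.101 against 0.0945) went the other way. After a correction for GC content, 9 mitotic kinesins (4.64% of all genes) were lower, and the mitotic and transport medians were -0.29 and -0.10. KIF15 and KIF11 no longer passed (edgeR, unadjusted p-values of 0.0532 and 0.0646) and KIF18B and KIF22 did. KIFC2 then had a log2 fold change of -0.60 and met the criteria of the study, as did 3.96% of all genes. After a correction for length, 10 mitotic kinesins (4.91%) were lower, with KIF22 added, and the class medians were -0.30 and -0.03.

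**Figure D3:**
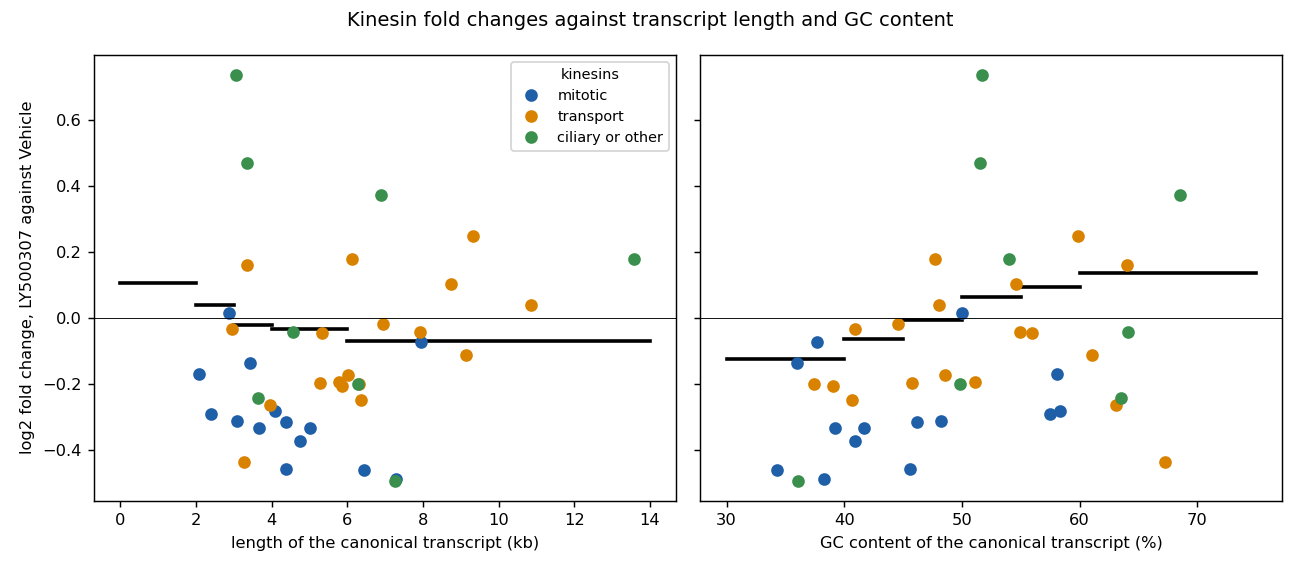
Log2 fold change of the tested kinesins, LY500307 against Vehicle (y axis), against transcript length in kb (left) and GC content in percent (right), with colour for the class and lines for the median of all other genes in each band. In each band that holds any, the mitotic kinesins have a median below that of the other genes, for example -0.34 against -0.12 below 40% GC. In most bands that hold transport kinesins, their median is also below.

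The counts of kinesins that passed the test depended on single samples, more so than the fold changes. Without Vehicle replicate 1, 0 mitotic kinesins were lower at an unadjusted p below 0.05 (1.84% of all genes), and without Vehicle replicate 2, 3 were (2.05%). Without LY500307 replicate 1 this number was 12 (20.9%) and without LY500307 replicate 2 it was 10 (8.71%). Transport kinesins lower were 0, 0, 8 and 2 in the same order. The median log2 fold change of mitotic kinesins stayed between -0.35 and -0.27 in these 4 fits, and that of transport kinesins between -0.20 and -0.02. The difference of the medians, -0.23 with all samples, was -0.14 without LY500307 replicate 1, in which the transport kinesins were nearest to Vehicle. In each of these fits a group of 1 sample was assumed to vary like the other group. The log2 fold changes of all 10 kinesins that passed were negative in the 4 fits, with -0.55 to -0.43 for KIF14, -0.68 to -0.27 for KIF20B and -0.45 to -0.42 for KIFC2. Without LY500307 replicate 2, KIF20B was at -0.27 and KIF11 at -0.20, and without Vehicle replicate 1, KIF15 was at -0.21. With the replicate number as a block, 9 mitotic kinesins were lower (5.52% of all genes), and with the block and the length correction 7 were (4.95%).

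**Figure D4:**
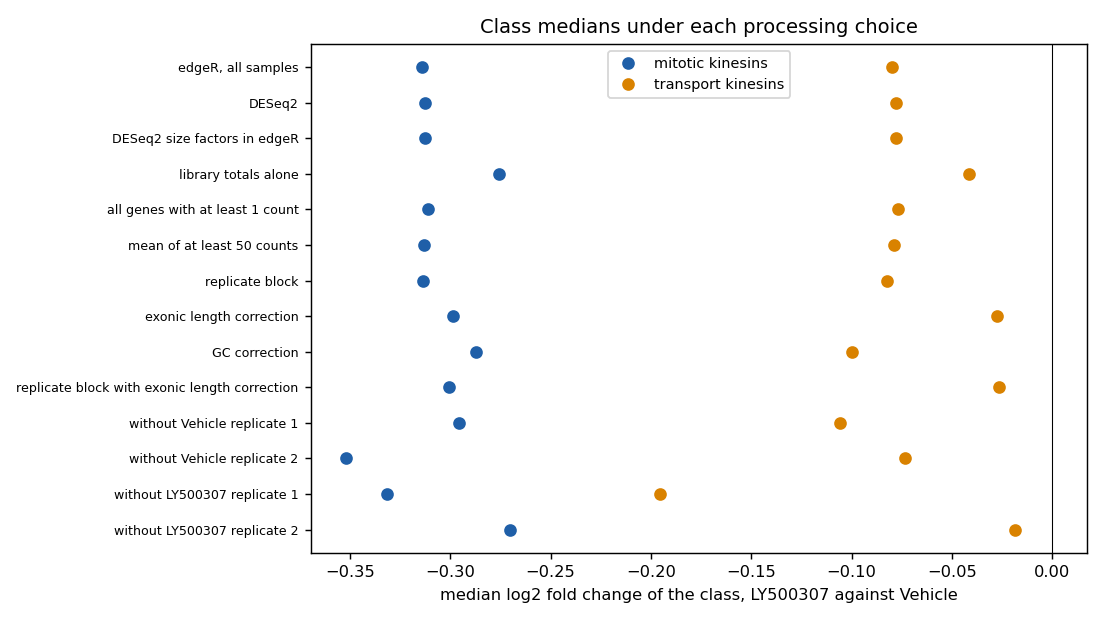
Median log2 fold change of the mitotic and of the transport kinesins (x axis) under each setting of the analysis (rows). The mitotic median lies between -0.35 and -0.27 when a sample is left out, and below the transport median in each row.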

How the data were processed

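RNA-seq of 2 Vehicle and 2 LY500307 samples was analysed, grouped by the treatment in the sample labels. Per the labels and processing notes, the authors aligned reads to hg19 with TopHat2 2.0.8b and counted them with HTSeq, and they deposited raw counts per gene symbol without normalization. The version of HTSeq and the strand setting are not given in the sources used here. Reads on no gene or not unique were left out of library sizes, and these tally lines held 50.0% to 54.4% of everything tallied in each file.

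The tests ran under R 4.3.3 in edgeR 4.0.16 (TMM, filterByExpr, glmQLFit, glmQLFTest, Benjamini-Hochberg over 14473 genes) without covariates. The standard error is the absolute log2 fold change over the square root of F. Each kinesin was read from this fit. Alternatives were DESeq2, the tool of the study (run here in version 1.42.0), its size factors in edgeR, library totals and 2 other low-count filters. A replicate block, loess corrections (span 0.3, prior count 2) for transcript length and GC content, and leaving out each sample were further alternatives. A crossed block was added after seeing the data. It pairs Vehicle replicate 1 with LY500307 replicate 2, and Vehicle replicate 2 with LY500307 replicate 1, which no label states. Positions, lengths and overlaps came from GENCODE on GRCh37, to which 43 of 43 kinesins and 91.8% of all symbols matched. The procedure was tested on simulated counts with the same spread in all samples. Here the replicate pairs differed in spread (chi-square per degree of freedom 5.16 in Vehicle, 42.5 with LY500307). The simulation therefore cannot show how often calls are wrong in these samples.

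Kinesin classes, partner lists and the call rule were chosen with earlier results of these data known, so the lists get no test of their own. Per-sample values are given for kinesins with an unadjusted p below 0.05 and the 8 mitotic and 6 transport kinesins with the smallest p. Of other kinesins whose reads another gene could share, some, such as KIF9, have them. Others, such as KIF2A, KIF2C, KIF13B and KIFC3, do not. CENPE and the 6 genes with the smallest p were named from each partner and regulator list. The other mitotic kinesins, KIF7, KIF27, CDK1, CCNB1 and AURKB were named after their values were seen. Depth sets a limit of 3 counts, which covers counting error only. One gene read in the check of the cell line is not reported here.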

Additional observations from a re-analysis of the deposited data

How the results depend on the processing

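The negative direction of the mitotic median and of all 10 kinesins that passed held in every alternative in which they were computed. Kinesins meeting the criteria of the study, 0 in the analysis above, were 1 (KIF27) with the replicate block (4.95% of all genes). KIF27 then had a log2 fold change of -0.52. With the GC correction there was 1 (KIFC2, 3.96% of all genes), and with the crossed replicate block 1 (KIF27, 5.4% of all genes). When an unadjusted p below 0.05 alone was asked for, 10 kinesins passed (11.6% of all genes). Kinesins at an adjusted p below 0.05 were 2 with the crossed replicate block (KIF14 and KIF20B), compared with 2.63% of all genes. Because that pairing was added after the data were seen, no conclusion is drawn from these 2 calls. When single samples were left out, mitotic kinesins lower at an unadjusted p below 0.05 ranged from 0 to 12, transport kinesins lower from 0 to 8 and transport kinesins higher from 0 to 2. Kinesins meeting the criteria of the study ranged from 0 to 6 and those at an adjusted p below 0.05 from 0 to 22. The 22 and the 6 came without LY500307 replicate 1, where 34.6% and 13.8% of all genes were called by the same rules. Without LY500307 replicate 2, 8 kinesins and 4.1% of all genes had an adjusted p below 0.05. The difference of the class medians ranged from -0.28 to -0.14. The cause was not tested.

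The replicate numbers do not pair the samples by any statement in the labels, and the deviations of same-numbered samples correlated at -0.07 over all genes and -0.23 over the more highly expressed genes. With the replicate block, 9 mitotic kinesins and 1 transport kinesin were lower, with a mitotic median of -0.31. With the block and the length correction, 7 mitotic kinesins were lower, without KIF4A and KIF11 (unadjusted p-values of 0.0619 and 0.0508). With library totals alone the median of all genes moved to 0.04 and that of mitotic kinesins to -0.28. The transport median, -0.08 with all samples, was -0.04 with library totals alone, -0.03 with the length correction and -0.03 with the block and the length correction. With the GC correction it moved the other way, to -0.10. The difference of the class medians then narrowed from -0.23 to -0.19. The named kinesins of the following tally were the 10 that passed and the 6 transport kinesins with the smallest p, KIFC2 being in both. Outside the fits with a sample left out, these kept their side of the threshold in 131 of 135. The tally left out, among others, KIF18B, KIF22 and KIF27. In edgeR, KIF18B and KIF22 passed with the GC correction (unadjusted p-values of 0.0237 and 0.0279). KIF22 also passed with the length correction (0.0481) and KIF27 with the replicate block (0.0322). With a sample left out, 18 calls of named kinesins were lost and 5 were gained. Depth limited KIF2B, KIF12 and KIF6.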
